A study of Mus musculus with 60 samples.

Results

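The elongases and desaturases that lengthen fatty acids and place double bonds in them were followed through 5 organs of mice deficient in Ftsj1, whose protein is a tRNA ribose methyltransferase encoded on the X chromosome. The 10 genes, chosen by symbol among 55290 named genes of the poly-A tables, were the elongases Elovl1, Elovl2, Elovl3, Elovl5, Elovl6 and Elovl7, the stearoyl-CoA desaturases Scd1 and Scd2, and the polyunsaturated fatty acid desaturases Fads1 and Fads2. The family was chosen by the measured fold changes of some of its members in these same tables, so its fold changes and calls are given as a description and support nothing by themselves. Whole brain, heart, kidney, liver and spleen came from 6 male mice aged 4 months, 3 labelled Ftsj1_DF (Ftsj1-deficient) and 3 labelled WT (wildtype), fed ad libitum and given no treatment. Per the labels, 2 of the mice were brothers and the other 4 were brothers of one another, each set held both genotypes, and all libraries carry 1 batch label. The making of the Ftsj1 allele was not given in the labels. Poly-A libraries, 30 in all with 1 per mouse and organ, hold mainly messenger RNA and are the ones that bear on the 10 genes. The deposited files give the authors' DESeq2 comparison of 3 against 3 mice per organ and no value per library, so each gene has a mean level over 6 libraries, a log2 fold change of Ftsj1_DF minus WT and its standard error (SE). In whole organs, fewer cells of a type and less RNA per cell cannot be told apart.

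Fatty acid elongation takes place on the endoplasmic reticulum, where an ELOVL enzyme joins malonyl-CoA to an activated fatty acid and 3-ketoacyl reductase, dehydratase and enoyl reductase complete the round. Elovl6 extends palmitate-length saturated chains, Elovl1, Elovl3 and Elovl7 act on longer saturated or monounsaturated chains, and Elovl2 and Elovl5 extend polyunsaturated ones. Stearoyl-CoA desaturase makes oleate and palmitoleate, and Fads1 and Fads2 add double bonds on the way from dietary linoleate and linolenate to arachidonate and docosahexaenoate. In liver, insulin acting through SREBP-1c and sterols acting through LXR are known to raise Scd1, Elovl6, Fads1 and Fads2, while Elovl3 is known from brown fat, skin glands and liver.

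The genes differ in how well short reads can tell them apart, which matters most for the Scd genes and Elovl6. Over the aligned coding sequence of GENCODE M21 transcripts (GRCm38), Scd1 shared 90.3% of bases with Scd2, 91.5% with Scd3 and 85.1% with Scd4, and its longest identical runs with them were 147, 185 and 116 bases. The stretch shown here, coding bases 566 to 625 of Scd1, is identical in Scd1, Scd2 and Scd3. Capitals mark the 3 bases at which Scd4 differs from Scd1.
Scd1: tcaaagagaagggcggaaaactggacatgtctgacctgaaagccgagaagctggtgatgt
Scd2: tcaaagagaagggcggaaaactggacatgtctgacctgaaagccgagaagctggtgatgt
Scd3: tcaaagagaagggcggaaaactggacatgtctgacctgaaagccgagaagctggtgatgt
Scd4: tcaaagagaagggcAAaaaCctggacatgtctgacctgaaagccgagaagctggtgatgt
The next stretch, coding bases 295 to 354 of Scd1, is the one of 60 bases in which the other Scd genes together differ most from Scd1. Capitals again mark differences from Scd1, which number 10 in Scd2, 18 in Scd3 and 17 in Scd4.
Scd1: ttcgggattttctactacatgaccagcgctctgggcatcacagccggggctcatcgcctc
Scd2: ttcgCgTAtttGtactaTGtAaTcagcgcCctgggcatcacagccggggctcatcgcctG
Scd3: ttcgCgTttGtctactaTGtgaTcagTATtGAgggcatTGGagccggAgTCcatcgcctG
Scd4: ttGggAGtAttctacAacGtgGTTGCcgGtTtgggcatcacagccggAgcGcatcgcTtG
Over the whole transcript, including the long untranslated part, 4.66% of the windows of 50 bases of Scd1 and 4.01% of those of Scd2 also occur in another gene. In coding sequence the elongases are far apart by comparison. Identity over the coding sequence was 63.2% for Elovl2 and Elovl5, 62.1% for Elovl1 and Elovl7 and 55.5% for Elovl3 and Elovl6, and Fads1 and Fads2 shared 66.2%. Elovl1, Elovl2, Elovl3, Elovl5, Elovl7 and Fads1 had no window shared on the same strand. Fads2 shared 0.161% of its windows with Fads3, and Elovl6 shared 4.59% of its windows with other transcripts. With the opposite strand of other transcripts, Elovl6 shared 0.559%, Elovl1 0.227% and Elovl7 0.0252%. The sources used here do not state how reads that fit several genes were counted, so the Scd and Elovl6 values are uncertain to that extent.

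The levels of the 10 genes set the organs apart. A level is given in parts per 1000000 (ppm), that is the mean of normalised counts over the 6 libraries in the authors' deposited table as a share of the sum over all genes of that organ. The tables were normalised separately and no spread of a level among mice can be had, so levels are ordered without a test. Together the 10 genes took 1.78% of the summed level in liver, 0.286% in brain, 0.162% in kidney, 0.0928% in spleen and 0.0279% in heart. Liver held the highest level of 7 of the 10 genes, kidney of Elovl1 and Elovl7, and brain of Scd2.

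Among the elongases of saturated and monounsaturated chains, Elovl6 stood at 129 ppm in liver, 91.2 in brain, 42.7 in kidney, 13.2 in spleen and 3.84 in heart, from the authors' deposited tables. Elovl3 was close to a liver transcript, with 274 ppm there and, in the other deposited tables, 0.462 in kidney, 0.085 in heart, 0.014 in brain and 0.0025 in spleen. Its liver level was 594 times its kidney level. Elovl1, which makes very long chains for sphingolipids, varied least, from 85.6 ppm in kidney through 62.8 in spleen, 35.8 in liver and 17.6 in heart to 16.7 in brain in the deposited tables. Elovl7 reached 82.1 ppm in kidney and 24.7 in brain, but 2.36 in spleen, 0.362 in liver and 0.307 in heart, in the deposited tables. Kidney and brain thus carried most of the Elovl7 signal, while its levels in liver and heart were close to each other.

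The polyunsaturated branch was highest in liver throughout. Elovl2 stood at 594 ppm in liver, 28.4 in kidney, 22.3 in brain, 0.742 in spleen and 0.12 in heart in the authors' deposited tables. Elovl5, which works on shorter polyunsaturated chains than Elovl2, was spread more evenly, with 741 in liver, 112 in spleen, 94.9 in brain, 68.7 in kidney and 32.9 in heart. Fads1 stood at 442 ppm in liver, 211 in brain, 108 in kidney, 34.9 in spleen and 25.7 in heart. Fads2 followed with 557 in liver, 214 in kidney, 177 in brain, 15.9 in spleen and 11.7 in heart.

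The 2 stearoyl-CoA desaturases had opposite organs. Scd1, the main form of liver and fat, stood at 15058 ppm in liver, 862 in kidney, 547 in spleen, 309 in brain and 152 in heart in the authors' deposited tables. Scd2, the main form of brain, stood at 1911 ppm in brain, 139 in spleen, 126 in kidney, 34.9 in heart and 9.22 in liver. Scd2 in brain was 13.7 times its next highest organ, and Scd1 in liver 17.5 times. Per kilobase of coding sequence, Scd1 ranked highest of the 10 genes in liver with 14139 ppm per kilobase, ahead of Elovl5 with 826. It also ranked highest in kidney (809, Fads2 next with 160), heart (143, Elovl5 next with 36.7) and spleen (514, Scd2 next with 129). In brain Scd2 led with 1779 ppm per kilobase, with Scd1 next at 290. Only 22.0% of the Scd1 transcript and 19.7% of the Scd2 transcript is coding, which raises their values on this measure. Per kilobase of whole transcript the leading gene of each organ was the same. On that measure Scd2 in spleen (25.5) ranked 4, behind Elovl5 (40.3) and Elovl1 (34.7). Scd1 in brain (64.0) then lay close to Fads1 (61.1).

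**Figure D1:**
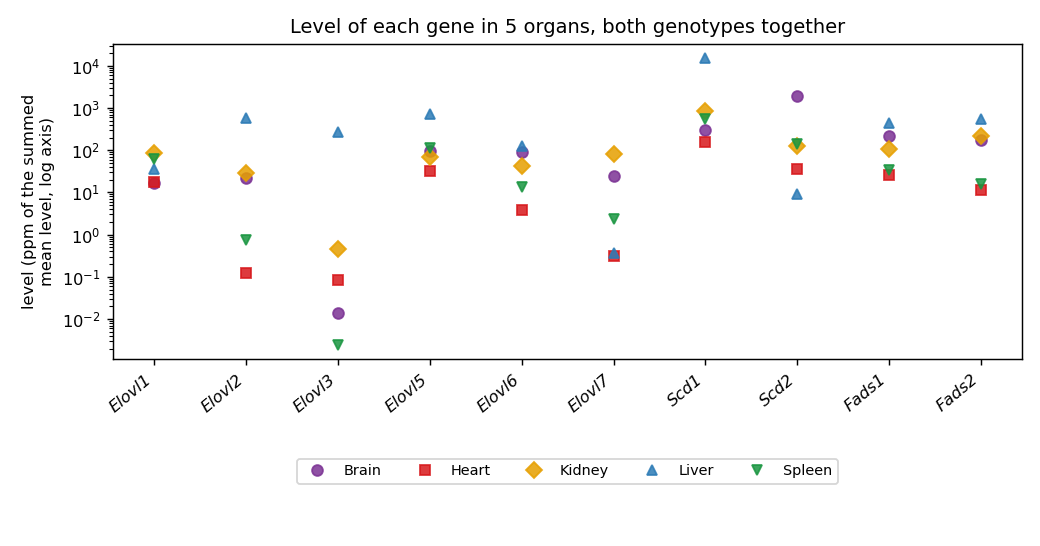
Level of each of the 10 genes (horizontal axis) in 5 organs (symbols), in ppm of the organ's summed mean level on a log axis, both genotypes together. Liver is the highest point for 7 genes, Scd2 is highest in brain at 1911 ppm, and Elovl3 in liver is 594 times its level in kidney.

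Genes whose levels followed the same course over the 5 organs were sought among 17391 genes at a mean level of 10 or more in every organ, by the root mean square difference of centred log2 levels. Elovl1 was nearest to Celsr1 and Naglu (both 0.12) and Elovl5 to Ebpl (0.20). Scd2 was nearest to the genes Wnk3 (0.34), Ahi1 (0.34) and Gria3 (0.35), and Fads1 to Sntg2 (0.29). Elovl6 was nearest to Gm11295 (0.32), whose annotated transcript shares 225 windows of 50 bases with that of Elovl6. Elovl2 had no close partner, with Gjb1 nearest at 1.03, and Elovl3 was too low in brain and spleen to enter.

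Between the genotypes, few of these genes passed the test. Of 50 pairs of gene and organ, 48 had an adjusted p in the authors' deposited tables, 2 rose, 1 fell and 45 did not pass an adjusted p of 0.05. The pairs without one were Elovl3 in brain and in spleen, at mean levels of 3.19 and 0.314 normalised counts. Elovl6 and Elovl3 rose in kidney and Scd1 fell in liver, and the other 7 genes passed in no organ. At an unadjusted p under 0.05 only Scd1 in heart was added, for 4 pairs in all. Errors, fold changes and p-values per gene are those of DESeq2 in the authors' deposited tables, with 3 against 3 mice, and the 95% intervals were computed from them. Since the labels name separate mice, the errors cover differences among mice, but mice of 1 set of brothers are not fully independent.

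**Figure D2:**
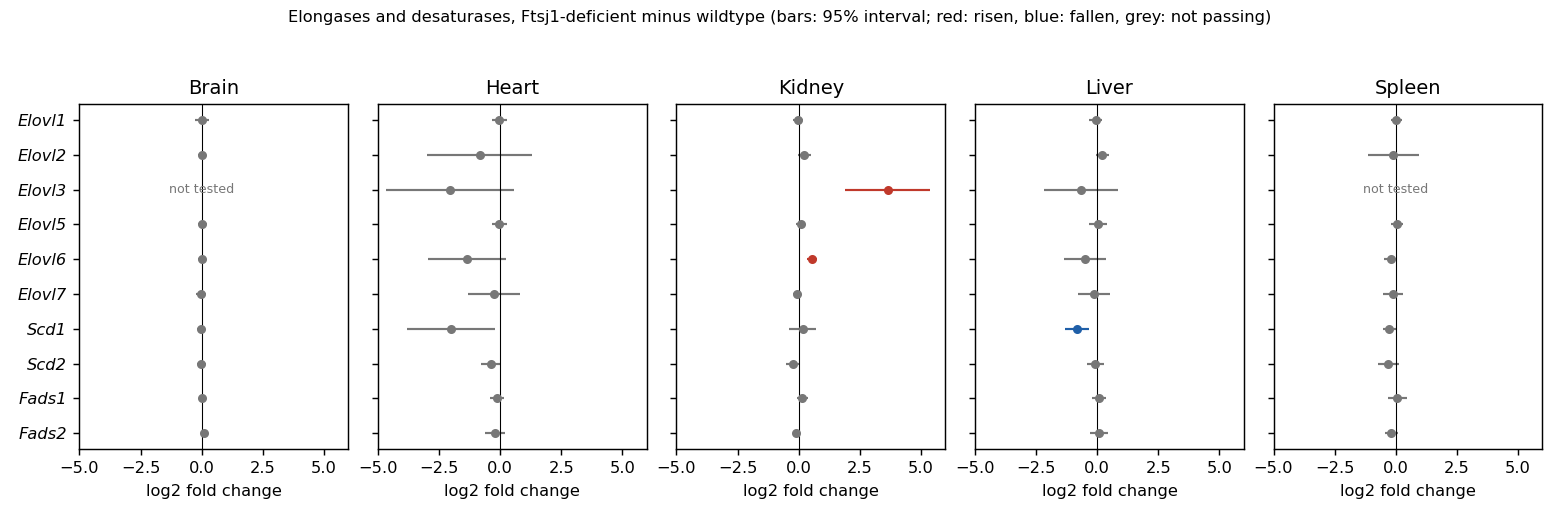
Log2 fold change of Ftsj1_DF minus WT (horizontal axis) of the 10 genes in 5 organs, from the authors' deposited tables, with 95% intervals as bars. Elovl3 and Elovl6 in kidney (red) rose, Scd1 in liver (blue) fell, the brain values lie close to 0, and all 10 heart values lie below 0.

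In kidney, 2 of 10 genes rose and none fell. The authors' deposited kidney table called 230 of 23313 genes, 0.987%, with 0.339% risen and 0.648% fallen, and since the family was chosen from this contrast nothing is read from the members' count. Elovl6 rose by a log2 fold change of 0.55 ± 0.11 (SE, n = 3 against 3) in the authors' deposited table, with DESeq2's adjusted p = 0.000321. That is 1.46-fold, with a 95% interval of 1.26 to 1.70, at a mean level of 14416 normalised counts. Equal group sizes make this 11710 normalised counts in WT against 17121 in Ftsj1_DF. Elovl3 rose by 3.65 ± 0.89 (SE, n = 3 against 3) in the same deposited table (DESeq2's adjusted p = 0.00674), 12.5-fold with an interval of 3.76 to 41.7. Its level was low, 156 normalised counts on average, which corresponds to 23.1 in WT and 289 in Ftsj1_DF.

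The other kidney genes did not pass. Among the elongases, the authors' deposited table gave log2 fold changes of 0.24 ± 0.14 for Elovl2, 0.073 ± 0.099 for Elovl5, -0.044 ± 0.11 for Elovl1 and -0.076 ± 0.077 for Elovl7. For the desaturases it gave 0.17 ± 0.28 for Scd1, -0.22 ± 0.15 for Scd2, 0.15 ± 0.11 for Fads1 and -0.091 ± 0.079 for Fads2. The 95% intervals of Elovl1, Elovl5, Elovl7 and Fads2 lay within 0.8-fold to 1.25-fold, so larger differences of these 4 genes lie outside the errors, while Scd1 had an interval of 0.77-fold to 1.64-fold. The median of the 10 genes was 0.11 and that of all genes tested 0.0046.

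Fat cells express several of these genes, and their markers are given beside Elovl3 and Elovl6. None of 9 tested adipocyte markers passed in the authors' deposited kidney table. Of them 8 were above 0, and the 1 below 0 was the only one at an unadjusted p under 0.05. Their median was 0.41 with a range of -2.12 to 0.85, and their summed level was 380 ppm. None of 5 tested brown fat markers passed either (1 at an unadjusted p under 0.05), but all 5 were above 0, with a median of 0.85, a range of 0.27 to 1.30 and a summed level of 33.7 ppm. Ucp1, the uncoupling protein that defines brown fat, had a log2 fold change of 1.30 ± 0.71 and Cidea, a lipid droplet protein of brown fat, 0.87 ± 0.42 in the deposited table, both short of the threshold. Lipe, the hormone-sensitive lipase, is listed at 0 in all tables although fat cells express it. Of 10 proximal tubule markers, with a summed level of 29430 ppm, 1 fell, Slc13a3 (-0.48 ± 0.079). The list had a median of -0.029 in the deposited table. Of 11 hepatocyte markers tested there, 4 fell, Ttr (-1.14 ± 0.12), Serpina1a (-1.08 ± 0.16), Apoh (-0.96 ± 0.19) and Serpina1c (-0.68 ± 0.11), with a median of -0.67, a range of -2.25 to 0.36 and a summed level of 1567 ppm. Of the 11, 9 were below 0 and 2 above. Of the list's 529659 normalised counts, 1 gene held 351813 and Apob 150516. Albumin (Alb), at only 3430 normalised counts, stood at -0.047 ± 0.13 and Apob at 0.063 ± 0.11, and neither passed. Most adrenal and pancreas genes had very large log2 fold changes, and the authors' deposited kidney table gives those no p. DESeq2 leaves out the p where a count in some library is marked as an outlier. Such genes numbered 55 in that table, none of them a member. They included 6 adrenal genes, all below 0, from Star (-2.46 ± 1.17) to Cyp11b2 (-23.1 ± 3.91), with a summed level of 35.4 ppm. They also included 8 pancreas enzymes, all above 0, from Cpb1 (5.59 ± 1.97) to Amy2a5 (8.53 ± 3.83), with a summed level of 15.7 ppm. The 1 adrenal gene tested stood at -0.027 and the 1 pancreas gene tested at 0.20, and neither passed. They had the highest levels of their lists, 20322 and 24318 normalised counts. With them the adrenal list summed to 95.6 ppm and the pancreas list to 87.6 ppm. Which libraries hold the RNAs without a p cannot be read from the deposited tables. The part of these cells in the kidney values was not tested.

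Other markers called in the authors' deposited kidney table were the neutrophil genes S100a8 (1.24 ± 0.35) and S100a9 (1.17 ± 0.31), with 2 of 8 neutrophil markers risen, a median of 0.73, a range of -0.97 to 1.64 and a summed level of 2.73 ppm. Of 4 heart markers tested, 1 fell, Ryr2 (-0.82 ± 0.14), in the deposited table. Of 13 clock genes tested, 1 fell, Per1 (-0.57 ± 0.15), in the deposited table. Of the 13, 9 were below 0 and 4 above, with a median of -0.29 and a range of -1.50 to 0.62. The part of neutrophils and of the time of day in Elovl3 and Elovl6 was not tested.

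In liver, 1 of 10 genes fell and none rose. The authors' deposited liver table called 419 of 18263 genes, 2.29%, with 0.887% risen and 1.41% fallen, and again nothing is read from the members' count. Scd1 fell by 0.83 ± 0.25 on the log2 scale (SE, n = 3 against 3) in the authors' deposited table, with DESeq2's adjusted p = 0.0413. Its level in Ftsj1_DF was 0.56-fold that in WT, with a 95% interval of 0.40 to 0.79. This call did not hold when the p-values were adjusted over every gene with a p (adjusted p = 0.0714) or over the 5 organs together (adjusted p = 0.10).

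Elovl6 and Elovl3 had lower averages in liver but large errors, at -0.51 ± 0.44 and -0.66 ± 0.77 on the log2 scale in the authors' deposited table. Their intervals, 0.39-fold to 1.27-fold and 0.22-fold to 1.80-fold, include no change as well as large falls. The polyunsaturated branch was near 0, with deposited values of 0.21 ± 0.14 for Elovl2, 0.032 ± 0.18 for Elovl5, 0.061 ± 0.15 for Fads1 and 0.065 ± 0.19 for Fads2. Elovl1 at -0.06 ± 0.13, Elovl7 at -0.13 ± 0.33 and Scd2 at -0.074 ± 0.17 in the deposited table did not pass either. The median of the 10 genes was -0.067 and that of all genes tested 0.0056. Only Elovl1 had an interval within 0.8-fold to 1.25-fold.

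Markers of other cells in the liver libraries are given beside Scd1. Of 7 adipocyte markers tested in the authors' deposited liver table, 2 fell, Cidec (-0.75 ± 0.17) and Cfd (-2.52 ± 0.53), and the list had a median of -0.99, a range of -2.52 to 0.13 and a summed level of 77.2 ppm. Pancreas enzymes had a median of 5.72 with 0 of 5 passing (3 at an unadjusted p under 0.05) and a summed level of 1644 ppm, and 4 more, at 5.86 to 6.27, have no p in the deposited table. Neutrophil markers rose in 2 of 6 tested, S100a8 (0.99 ± 0.24) and S100a9 (0.88 ± 0.23) in the deposited table, with a median of 0.68, a range of -0.56 to 0.99 and a summed level of 6.52 ppm. Also called in the deposited liver table were the leukocyte gene Ptprc (0.62 ± 0.16) and the adrenal gene Cyp21a1 (-1.97 ± 0.54). Hepatocyte markers had a median of -0.087, with 0 of 12 passing and 2 at an unadjusted p under 0.05. Per2, a clock gene whose product follows the time of day, fell by 1.11 ± 0.25 in the deposited liver table. Of 11 clock genes tested there, 7 were below 0 and 4 above, with a median of -0.30 and a range of -1.67 to 0.59. Another 2 clock genes, at -3.06 and -2.95, have no p in that table. Scd1 and Elovl3 are known to vary over the day in mouse liver, and the part of these markers and of the time of day in their values was not tested.

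In heart, none of the 10 genes passed, although all 10 log2 fold changes were below 0. The authors' deposited heart table called 116 of 21428 genes, 0.541%, with 0.21% risen and 0.331% fallen. Scd1 had the lowest unadjusted p, 0.0275 (DESeq2, n = 3 against 3, adjusted p = 0.495), with a log2 fold change of -2.02 ± 0.92 in the deposited table and an interval of 0.071-fold to 0.86-fold. Elovl6 stood at -1.36 ± 0.81 and Elovl3 at -2.05 ± 1.33 in the deposited table, the latter at a mean of only 12 normalised counts. Scd2 at -0.36 ± 0.20, Fads2 at -0.22 ± 0.21, Fads1 at -0.13 ± 0.15, Elovl1 at -0.044 ± 0.16 and Elovl5 at -0.032 ± 0.16 were closer to 0 in the deposited table. Elovl2 (-0.84 ± 1.09) and Elovl7 (-0.25 ± 0.54) were low in heart and had wide errors in the deposited table. The median of the 10 genes was -0.31 and that of all genes tested -0.0052.

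Scd1, Elovl6 and Elovl3 are also genes of fat and liver, and most markers of both had log2 fold changes below 0 in heart. Of 9 adipocyte markers tested in the authors' deposited heart table, 8 were below 0, 1 fell (Lep, which encodes leptin, at -4.92 ± 0.85), the median was -1.89, the range -4.92 to 0.40 and the summed level 748 ppm. Adiponectin (Adipoq) stood at -2.11 ± 1.01 in the same deposited table and did not pass. All 12 hepatocyte markers were below 0 with a median of -2.49, a range of -4.64 to -0.66 and a summed level of 33.5 ppm, and none passed, with 6 at an unadjusted p under 0.05. Brown fat markers had a median of -0.33, a range of -1.64 to 0.27 and a summed level of 516 ppm. Of 6 neutrophil markers tested, 4 rose in the deposited heart table, S100a8 (1.83 ± 0.44), S100a9 (2.26 ± 0.37), Cxcr2 (2.27 ± 0.35) and Csf3r (0.68 ± 0.18), with a summed level of 11.2 ppm, while Ltf stood at -6.07 with no p. Of 13 clock genes tested, 1 fell in the deposited heart table, Per1 (-1.12 ± 0.18). At an unadjusted p under 0.05 were 8 of them, in both directions. Of the 13, 9 were below 0 and 4 above, with a median of -0.51 and a range of -1.55 to 0.57. The part of these cells and of the time of day in the heart values was not tested.

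Spleen and brain held no passing member. The authors' deposited spleen table called 17 of 22947 genes, 0.0741%, with 0.0479% risen and 0.0261% fallen. In it Scd1 stood at -0.26 ± 0.14, Scd2 at -0.31 ± 0.22, Elovl6 at -0.20 ± 0.14 and Fads2 at -0.18 ± 0.13, per the authors' deposited table. Elovl1 (0.020 ± 0.11), Elovl5 (0.050 ± 0.13) and Fads1 (0.057 ± 0.20) lay at 0 within their errors in the deposited table, as did Elovl2 (-0.094 ± 0.54) and Elovl7 (-0.12 ± 0.21). The median of the 9 genes tested was -0.12 and that of all genes tested 0.014. Pancreas enzymes, which no spleen cell is known for, summed to 44834 ppm in the spleen libraries, and 9 of 9 tested were above 0 with a median of 0.33 and none passing.

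The authors' deposited brain table called 13 of 21406 genes, 0.0607%, with 0.014% risen and 0.0467% fallen. The 9 brain genes tested ranged from -0.037 for Scd1 to 0.078 ± 0.059 for Fads2 in that deposited table. Scd2, the most abundant of the family there, stood at -0.015 ± 0.092, Elovl6 at 0.0078 ± 0.073, Fads1 at 0.016 ± 0.072, Elovl5 at 0.033 ± 0.086, Elovl2 at 0.021 ± 0.088 and Elovl7 at -0.015 ± 0.10. Elovl1 had the widest error, 0.0088 ± 0.14 in the deposited table. All 9 of the 95% intervals lay within 0.8-fold to 1.25-fold, so in brain a difference beyond these folds lies outside the interval of every member tested. Myelin-forming cells and astrocytes, which make much of the brain's lipid, had marker medians of -0.010 (0 of 10 passing) and -0.035 (0 of 8 passing).

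How precisely a member was measured varied more than its level would give. Each SE was placed among those of genes at a similar mean level in the same deposited table. In heart, Scd1 and Elovl6 lay above 99.4% and 99.5% of such genes, and the SE of Scd1 was 0.92 where the median of its peers was 0.15. In liver, Elovl3 (98.4%) and Elovl6 (98.1%) stood out in the same way, and in kidney Elovl3 (98.6%), Scd1 (98.4%), Scd2 (97.3%) and Elovl2 (95.5%). In brain and spleen no tested member reached 95%. Elovl6 in kidney lay at 83.4%. Scd1 in liver lay at 90.0%, the most it could reach, since only 10 genes, itself included, stood at its level. Its SE was 0.25 where their median was 0.17, so the mark of 95% says nothing about it. Differences among mice of 1 genotype were therefore larger for Scd1, Elovl3 and Elovl6 than for most genes at their level in the organs named, and which mice stood apart cannot be read from the deposited tables.

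**Figure D3:**
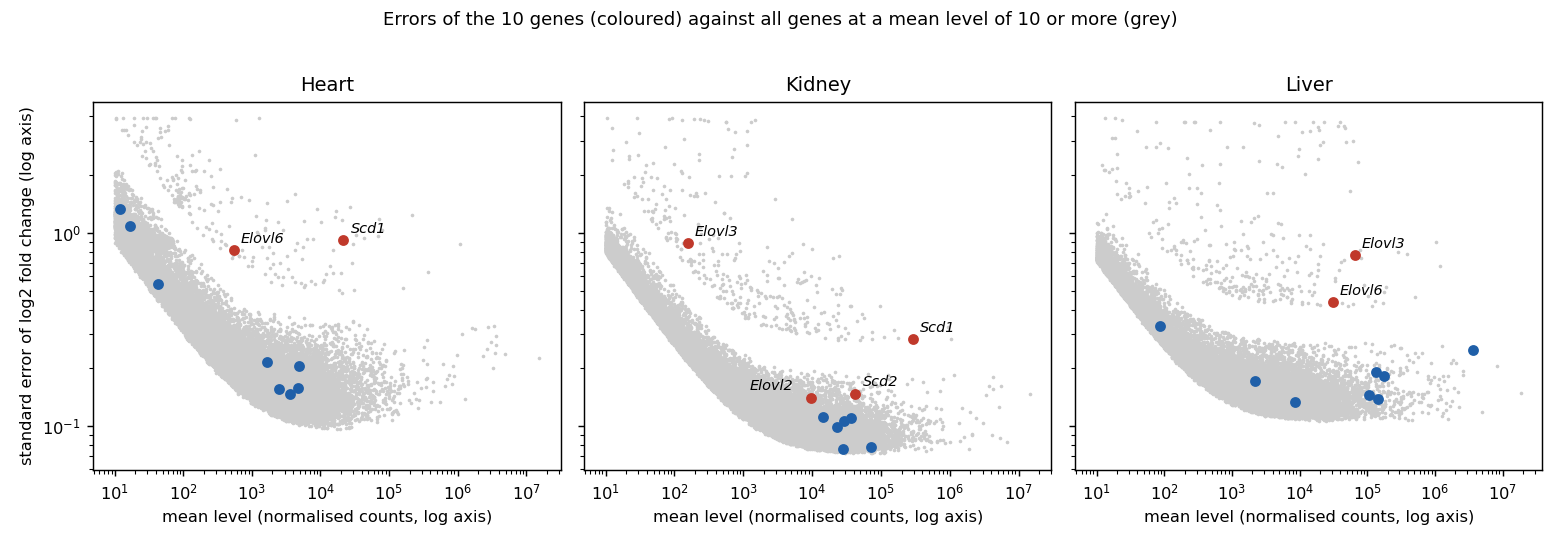
Standard error of the log2 fold change against mean level (both log axes) for all genes at a mean level of 10 or more (grey) and the 10 genes (coloured) in heart, kidney and liver, from the authors' deposited tables. Red points with names are the members whose error is above that of at least 95% of genes at a similar level, such as Scd1 in heart and Elovl3 in kidney. Scd1 in liver could not be marked, since only 10 genes, itself included, stood at its level.

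Other parts of the pathway were followed by lists. Of the genes for the remaining steps of elongation, the 3-ketoacyl reductase, dehydratases and enoyl reductases (Hsd17b12, Hacd1 to Hacd4, Tecr and Tecrl), none passed DESeq2's adjusted p in any organ, with medians of -0.063 in kidney (0 of 7 tested passing), -0.11 in liver (0 of 6) and 0.053 in heart (0 of 7) and a count at unadjusted p under 0.05 of 0, 1 and 0. The cytochrome b5 system that feeds electrons to desaturases had medians of -0.055 in kidney, -0.12 in liver and 0.0046 in heart, again with 0 of 6 passing in each organ and a count at unadjusted p under 0.05 of 1, 1 and 0. Of 7 related genes (Elovl4, Scd3, Scd4, Fads3, Fads6, Degs1 and Degs2), 1 passed. That was Scd4, another stearoyl-CoA desaturase, which rose in heart by 1.19 ± 0.20 in the authors' deposited table (DESeq2's adjusted p = 8.68e-06). In the same libraries Scd1 stood at -2.02 ± 0.92. Mean levels in heart were 3087 normalised counts for Scd4 and 21510 for Scd1.

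In a list of genes for the synthesis, activation and esterification of fatty acids, called fatty acid synthesis genes here, 4 fell in liver and 2 others rose in kidney, and the difference of this list between the organs was not tested. In liver, 4 of 15 fatty acid synthesis genes fell, none rose, 13 were below 0 and the median was -0.58, beside 0.0056 over all genes tested. In the authors' deposited table the 4 were Thrsp (-2.15 ± 0.49), a lipogenic regulator protein, ATP-citrate lyase Acly (-1.12 ± 0.24), acetyl-CoA synthetase Acss2 (-0.86 ± 0.19) and the glycerol phosphate acyltransferase Gpam (-0.85 ± 0.20). Fatty acid synthase Fasn (-1.34 ± 0.44) and acetyl-CoA carboxylase Acaca (-0.58 ± 0.20) did not pass in the deposited table. Srebf1, which encodes SREBP-1, was the only one of 16 lipogenic regulators to pass, at -1.06 ± 0.21 (DESeq2's adjusted p = 0.00015 in the authors' deposited table). Of the members that SREBP-1 is known to raise, Scd1 fell, while Elovl6, Fads1, Fads2 and Elovl5 did not pass. The interval of Elovl6, 0.39-fold to 1.27-fold, was wide. The part of Srebf1 in these values was not tested.

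In kidney, 2 of 15 fatty acid synthesis genes rose, Acsl1 (0.57 ± 0.13), which activates long-chain fatty acids, and Acacb (0.44 ± 0.11), the mitochondrial acetyl-CoA carboxylase, per the authors' deposited table. In liver, Acsl1 was also above 0, at 0.44 ± 0.18, while Acacb stood at -0.41 ± 0.19, and neither passed there. The median of that list was 0.038 and Fasn stood at 0.69 ± 0.29 without passing in the deposited table. None of 16 lipogenic regulators passed in kidney, and Srebf1 stood at -0.20 ± 0.17. Targets of the fasting receptor PPAR alpha rose in both organs, 9 of 13 tested in kidney (median 0.42) and 6 of 14 in liver (median 0.74). Fgf21, a liver hormone of fasting, rose by 2.38 ± 0.21 in liver, per the authors' deposited table. This list and its direction were known from these same tables when it was chosen, so they are no independent evidence. In heart, 12 of 15 fatty acid synthesis genes were below 0 and 3 above, with a median of -0.16. None passed there, and 4 were at an unadjusted p under 0.05. Fasn stood at -1.77 ± 0.82 in the authors' deposited heart table.

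**Figure D4:**
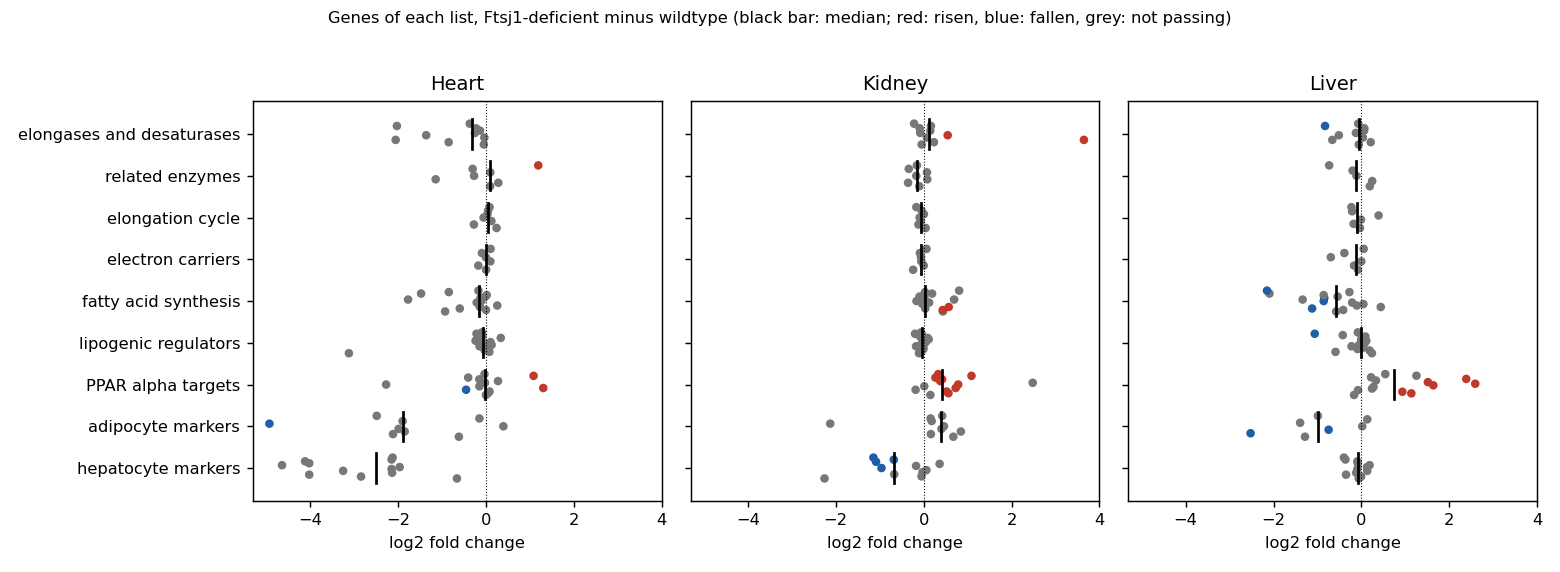
Log2 fold changes of Ftsj1_DF minus WT (horizontal axis) for the genes of 9 lists in heart, kidney and liver, from the authors' deposited tables, with red for risen, blue for fallen, grey for not passing and a black bar at the median of the genes shown. In liver 4 fatty acid synthesis genes and Scd1 are blue, in kidney Elovl6, Elovl3 and 9 PPAR alpha targets are red, and in heart the fat and liver markers lie at medians of -1.89 and -2.49.

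Across organs, Elovl6 pointed in different directions, with log2 fold changes of 0.55 in kidney, 0.0078 in brain, -0.20 in spleen, -0.51 in liver and -1.36 in heart in the authors' deposited tables. Cochran's Q, which asks whether 5 fold changes differ more than their errors allow, was computed for 17367 genes at a mean level of 10 or more in every organ and called 212 of them, 1.22%. Elovl6 had Q = 27.4 (adjusted p = 0.00423), and without kidney Q = 5.49 (adjusted p = 0.786), so that call rested on kidney. Scd1 had Q = 15.7 (adjusted p = 0.151), and Q of the other 7 members entered lay between 0.333 and 5.96. The difference of kidney minus liver was called for 156 of 19054 genes, 0.819%. Elovl3 had a difference of 4.31 ± 1.17 (SE, adjusted p = 0.0355), which did not pass without the filter on level (adjusted p = 0.058). The differences of Elovl6 (1.06, interval 0.17 to 1.95, adjusted p = 0.548) and Scd1 (0.99, interval 0.26 to 1.73, adjusted p = 0.349) did not pass. These 2 tests use the same fold changes that led to the choice of the family, and treat organs as independent although the same mice gave all of them.

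RefSeq promoter windows, from 250 bases before to 50 after a gene's start on GRCm38.p6, were at hand for 6 of the 10 genes, Elovl1, Elovl2, Elovl5, Elovl6, Elovl7 and Fads2. They were searched on both strands for an E-box (CACGTG), a sterol response element (TCACNCCAC), a CCAAT box (CCAAT), a GC box (GGGCGG) and the nuclear receptor repeats DR1 and DR4, which are direct repeats of AGGTCA with 1 or 4 bases between. Among all 32851 windows of the same length, these letters occurred in 7.15%, 1.24%, 37.4%, 35.7%, 0.0396% and 0.0152%. None of the 8 windows of these 6 genes held the sterol response element or either repeat. The window of Elovl6, which rose in kidney, lies at chr3:129532136-129532435 on the plus strand and held none of the 6 motifs.
Elovl6: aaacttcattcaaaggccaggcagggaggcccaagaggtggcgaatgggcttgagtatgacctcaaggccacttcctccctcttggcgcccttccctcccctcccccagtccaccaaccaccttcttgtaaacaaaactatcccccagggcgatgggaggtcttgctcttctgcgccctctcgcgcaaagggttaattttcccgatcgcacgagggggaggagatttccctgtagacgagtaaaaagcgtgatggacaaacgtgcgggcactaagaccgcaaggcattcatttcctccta
The window of Elovl5, which passed in no organ, lies at chr9:77917115-77917414 on the plus strand and is shown for contrast, with 1 E-box and 2 CCAAT boxes in capitals, both of the latter on the opposite strand and so read here as ATTGG.
Elovl5: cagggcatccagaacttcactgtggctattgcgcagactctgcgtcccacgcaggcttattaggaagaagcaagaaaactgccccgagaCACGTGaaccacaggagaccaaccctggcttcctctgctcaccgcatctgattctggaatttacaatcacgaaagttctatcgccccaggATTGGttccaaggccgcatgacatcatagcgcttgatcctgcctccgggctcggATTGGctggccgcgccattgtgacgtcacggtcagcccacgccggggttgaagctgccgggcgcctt
GC boxes were found in the windows of Elovl1, Elovl2, Elovl7 and Fads2. A match describes letters and shows no binding, and a window without one says only that these letters are not in it.

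Ftsj1 itself was used to read the sign of the fold changes, so its direction is no check of the labels. Its level in the Ftsj1_DF libraries was between 0.088-fold (liver) and 0.15-fold (brain) that in WT in the authors' deposited tables, and it fell in all 5 organs. Organ marker lists were highest in the organ of their label. The brain, heart, kidney, liver and spleen lists summed to 9708, 30311, 24420, 111598 and 2617 ppm in their own organ. Their highest sums in another organ were, in the same order, 124 (spleen), 247 (brain), 4.31 (spleen), 1512 (kidney) and 22.6 ppm (heart). The summed mean level was 128.0 to 338 times 1000000 normalised counts per organ, and depth per library is unknown.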

How the data were processed

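Poly-A libraries (Illumina stranded mRNA Prep) of 5 organs from 3 Ftsj1_DF and 3 WT mice were used. The 30 rRNA-depleted total RNA libraries were not used, since their deposited tables name none of the 10 genes. Per the submitters' processing notes, the tools were featureCounts, Subread 2.0.3 and DESeq2, with the genome build GRCm39. The aligner, the annotation and how reads that fit several genes were counted: not given in the sources used here. The signal column is the mean of normalised counts deposited by the authors, per the file headers. The authors' DESeq2 run also gave, per the file headers, a log2 fold change with its standard error, a Wald score, a p-value and an adjusted p-value for each gene. The sign is Ftsj1_DF minus WT, read from Ftsj1. An empty adjusted p counts as not tested. The entry with a blank name, at most 0.000198% of a summed level, was left out.

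No count model was fitted, since the tables hold no value per library. A gene counts as risen or fallen at a deposited adjusted p under 0.05, across all genes of an organ. Intervals are 95%, from the normal distribution. Levels by genotype follow from the mean level and the fold change. Cochran's Q and the kidney minus liver difference were computed per gene at a mean level of 10 or more, with Benjamini-Hochberg adjustment, in Python 3.11.15 with pandas 2.3.3 and scipy 1.17.1, and tested on simulated data. Coding sequences were aligned with MAFFT 7.526. Sequences are from GENCODE M21 and RefSeq on GRCm38, not the authors' build.

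The members and lists were chosen with earlier results of these data known. The text names all 10 genes in every organ, Ftsj1, up to 4 called genes per pathway list and organ, called genes of the marker lists given for an organ and up to 3 genes nearest in level. Fasn, Acaca, Fgf21, Adipoq, Ucp1, Cidea, Star, Cyp11b2, Cpb1, Amy2a5, Ltf, Alb, Apob, Srebf1 in kidney, and Acsl1 and Acacb in liver were named after their values were seen. A gene of the PPAR alpha list is not reported here and was left out of its counts. Threshold, adjustment, centring, filter and organs entered were varied. A setting that divides levels otherwise, and the centring of the lists, were chosen after seeing the data.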

Additional observations from a re-analysis of the deposited data

Results flagged for a closer look

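Elovl6 differed between organs by more than the errors of its fold changes, with Cochran's Q of 27.4 over the 5 organs (adjusted p = 0.00423 over 17367 genes). It rose in kidney and did not pass elsewhere. The same mice gave all organs, and the values are those that led to the choice of the family.

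Elovl3 had a log2 fold change that was 4.31 higher in kidney than in liver (95% interval 2.01 to 6.61, adjusted p = 0.0355 over 19054 genes). Its level in liver was 594 times that in kidney, and its errors lay above those of 98.6% (kidney) and 98.4% (liver) of genes at a similar level. Without the filter on level the difference did not pass (adjusted p = 0.058), and these values too led to the choice of the family.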

How the results depend on the processing

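The 2 kidney calls held at thresholds of 0.1 and 0.01, under 3 other adjustments and after centring. In liver the count of members called went from 1 to 0 at a threshold of 0.01, with adjustment over every gene with a p (Scd1, adjusted p = 0.0714) and with adjustment over the 5 organs together (adjusted p = 0.10). It stayed at 1 at a threshold of 0.1, with adjustment over genes at a mean level of 10 or more and after centring. Brain, heart and spleen stayed at 0 members called under all 6 alternatives. Centring on the organ median kept the direction of 49 pairs of gene and organ and turned Elovl1 in spleen to -0.016. The count of members that differed between organs went from 1 to 0 without kidney and stayed at 1 without each other organ, without the filter on level and after centring. The count for kidney minus liver went from 1 to 0 without the filter on level (Elovl3, adjusted p = 0.058) and stayed at 1 after centring. The number of genes highest in liver, 7, and the counts of pathway genes called did not change under the alternatives added after seeing the data.

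No paired analysis was possible because the tables hold no values per library, so a block for brothers and leaving out each mouse were not run. Depth per library is unknown for the same reason. Members at a low mean level, such as Elovl3 outside liver, rest on their deposited error alone.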
